A study of Danio rerio with 12 samples.

Results

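The comparison described here sets brains of the zebrafish strain labelled kif5a::miR-29sponge against wild-type brains. Its members were chosen by the strain label, which gave 8 of the 12 brain libraries of the study, 4 per side. All 12 libraries carry the labels brain, male, 6 months and total RNA, and the remaining 4 come from a second strain, actb1::miR-29sponge. The strain label is the only one that differs between the groups. Neither the number of founder lines nor the use of pooled animals is given in the labels, and no label says whether each library is a different fish, so the p-values reflect library-to-library spread alone, which may be technical. Of the 32105 genes in the count table, 19645 had more than 0.5 CPM (a gene's counts scaled to a common library total) in at least 4 libraries and were tested.

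MicroRNAs of the miR-29 family pair with messenger RNAs through a short seed and lower their stability or translation. Collagen and other matrix messages, DNA methyltransferases and proteins of the BCL2 family are among the targets reported in mammals, and the family accumulates in neurons as the brain matures. A sponge is a transcript full of binding sites for a microRNA, which competes with the natural targets. KIF5A encodes a kinesin heavy chain that carries cargo along axons, and its name in the strain label stands where a promoter is usually written; the labels themselves say no more on where the sponge is made.

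Much of what follows concerns the circadian clock. In vertebrates, CLOCK and BMAL1 proteins switch on genes of the period and cryptochrome families, whose products repress CLOCK and BMAL1 in turn, while the REV-ERB receptors repress the BMAL1 gene itself. Output factors such as TEF and DBP carry the rhythm to other genes. Zebrafish tissues sense light directly, and in this species light switches on per2, some cryptochrome genes and genes of DNA repair. The labels used here give no hour of sampling and no light schedule for any group.

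Library totals ran from 20884576 to 33573243 counts, and 23780 to 24354 genes had at least 1 count. Of 36 general neuron markers tested, 0 were called in either direction by edgeR's quasi-likelihood test (2 at an unadjusted p under 0.05, 0 by DESeq2). Their log2 differences were small and mostly positive, 30 of 36, with a median of 0.07, against -0.01 over all genes, and of -0.02 without wild type 2 and 4. Over all 19645 tested genes, edgeR called 0.534%, 2222 had an unadjusted p under 0.05, DESeq2 called 437 and 48.9% were positive. KIF5A itself stood at 522, 378, 485 and 450 CPM in wild type 1 to 4 and at 453, 471, 481 and 505 CPM in kif5a sponge 1 to 4, groups that overlap. These counts do not measure the sponge, and MIR29A and MIR29B1, the miR-29 precursor genes listed in the table, had at most 2 and 1 counts in any library. Photoreceptor markers stood apart in kif5a sponge 2 and 3, where the mean log2 level of 42 markers lay 2.54 and 2.62 above the wild-type mean, while kif5a sponge 1 and 4 had 0.06 and 0.31. Microglia markers stood apart in wild type 2 and 4, where the mean of 31 markers was 0.55 and 0.63, against -0.56 and -0.62 in wild type 1 and 3. In whole tissue, fewer cells of a type and less RNA per cell cannot be told apart.

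Against wild type, 22 genes were higher in the kif5a line (0.112% of 19645 tested) and 83 were lower (0.422%), 105 in all (0.534%). A gene is termed called where its p, from the quasi-likelihood test of edgeR and adjusted by Benjamini-Hochberg over all tested genes, was under 0.05. The change exceeded 2-fold for 12 of the higher and 48 of the lower genes. A difference of more than 2-fold was found in 4.93% of all tested genes, called or not. The fitted log2 difference of all tested genes had an SD of 0.585, and 86.2% of them lay within 0.5 of 0. The 4 kif5a libraries lay entirely above the 4 wild-type libraries for all 22 higher genes and entirely below for 82 of the 83 lower ones, the exception being arhgef28b. Over all tested genes such separation held for 836 upward (4.26%) and 980 downward (4.99%).

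Of the 105 genes, 84 carry a gene name, 17 of them higher and 67 lower, and these were sorted by known role after their values had been seen. When each of the 8 libraries was left out in turn (the leave-one-out fits), the count of higher genes ran from 5 to 26 and that of lower genes from 30 to 70. In those 8 fits, 5 of the higher and 27 of the lower genes were called every time. Without kif5a sponge 2 and 3, 3 genes were higher and 21 lower, and without wild type 2 and 4, 19 were higher and 46 lower. All 105 genes kept the sign of their difference in both. Where groups do not overlap, leaving libraries out can hardly turn a sign, so the kept signs are no test. The genes just inside the threshold were CAPRIN1 (ENSDARG00000054272) and CPT1B, each with an adjusted p of 0.0493, and just outside it lay GALC (ENSDARG00000016474; 0.0517) among lower and SBDS (0.0555) among higher genes.

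**Figure D1:**
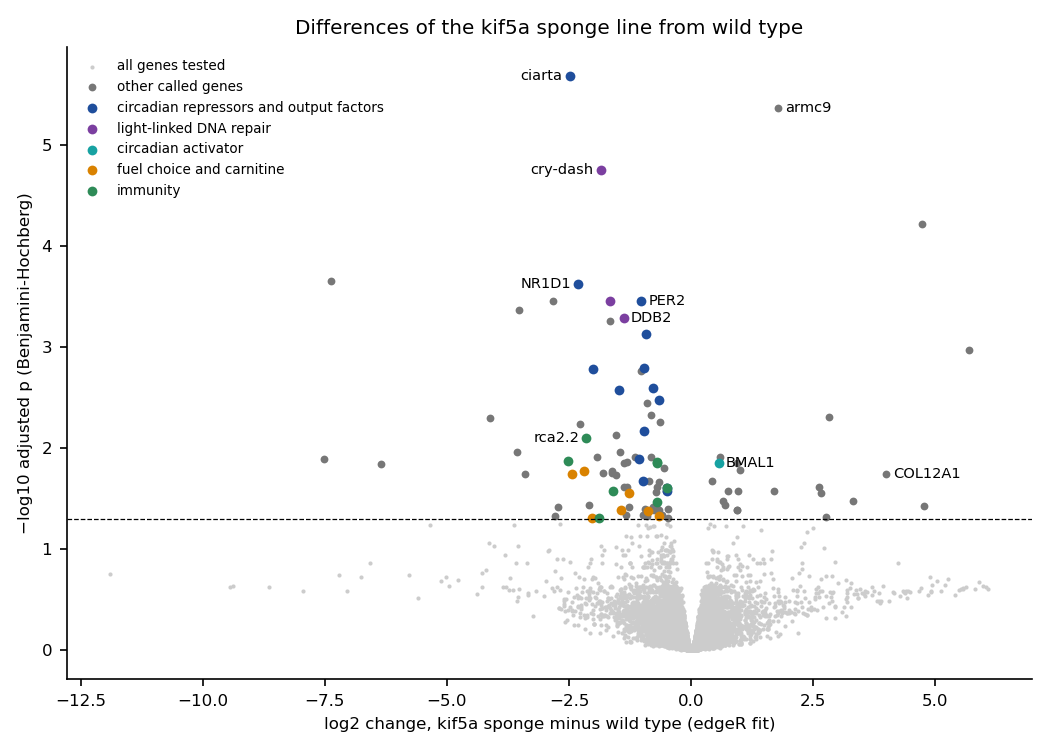
Each point is 1 of the genes tested, with the fitted log2 change of the kif5a line from wild type on the horizontal axis and −log10 of the Benjamini-Hochberg adjusted p of edgeR's quasi-likelihood test on the vertical axis; the dashed line is an adjusted p of 0.05, colours mark roles, and mhc2dga and mhc2dgb, at 0 counts in the kif5a line, are left out. Circadian repressors and light-linked repair genes fill the upper left, led by ciarta at -2.49, and armc9 is the highest point on the right at 1.78.

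Many genes of the repressing arm of the clock fell in the kif5a line, with all 4 libraries below wild type. ciarta, whose mouse counterpart represses CLOCK and BMAL1, stood at 45.9, 39.3, 41.1 and 39.0 CPM in wild type 1 to 4 and at 5.95, 8.17, 7.07 and 8.26 CPM in kif5a sponge 1 to 4. The highest kif5a library lay far below the lowest wild-type library, and the log2 change was -2.49 ± 0.13 (SE of the fit; edgeR, Benjamini-Hochberg adjusted p = 2.05e-06). NR1D1, the receptor REV-ERB alpha that represses BMAL1, gave 84.2, 55.4, 59.0 and 57.3 CPM against 10.9, 12.3, 13.5 and 15.1 CPM. Its groups were also far apart, with wild type 1 high among its own group, and the change was -2.31 ± 0.21 (edgeR adjusted p = 0.000238).

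Period genes followed. PER1 (ENSDARG00000056885) read 34.7, 23.1, 25.1 and 24.3 CPM in the wild-type libraries and 4.20, 5.81, 6.99 and 9.63 CPM in the kif5a line. The second zebrafish PER1 gene (ENSDARG00000012499) read 189, 162, 173 and 180 CPM against 88.2, 79.8, 80.8 and 112 CPM, and PER2 read 187, 141, 155 and 150 CPM against 77.8, 81.2, 75.5 and 75.9 CPM. The groups did not overlap for any of these, and the log2 changes were -2.01 ± 0.23, -0.97 ± 0.11 and -1.03 ± 0.10. PER3 was not called, with a log2 difference of -0.32 ± 0.16 (edgeR adjusted p = 0.496).

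Cryptochromes bind CLOCK and BMAL1 and silence them. CRY2 went from 77.8, 70.2, 72.8 and 65.9 CPM in wild type to 32.2, 35.4, 42.6 and 41.2 CPM, a log2 change of -0.92 ± 0.10. Of the paired CRY1 genes, ENSDARG00000011583 changed by -0.96 ± 0.13 and ENSDARG00000045768 by -0.49 ± 0.09. The former was called in all 8 leave-one-out fits and the latter in 1, with an adjusted p of up to 0.0978. Other cryptochrome family members went the other way without passing the test. cry3b differed by 0.63 ± 0.16 (edgeR adjusted p = 0.14) and cry4 by 0.42 ± 0.15 (edgeR adjusted p = 0.301). Both stood above wild type in 4 of 4 libraries.

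Further repressors of the loop fell. BHLHE41, a helix-loop-helix repressor that competes for the same DNA element as CLOCK and BMAL1, read 219, 175, 202 and 179 CPM in the wild-type libraries and 109, 117, 121 and 107 CPM in the kif5a line (log2 change -0.77 ± 0.10). cipca and cipcb, relatives of a CLOCK-binding repressor of the mouse, fell by 1.48 ± 0.18 and 0.49 ± 0.09 on the log2 scale. ciartb, the duplicate of ciarta, fell by 0.99 ± 0.17. The first of these calls, and that of cipca, held in all 8 leave-one-out fits, whereas cipcb was called in 1 and ciartb in 3. BHLHE40, the near relative of BHLHE41, differed by -0.12 ± 0.10 and was not called.

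Of the output factors of the PAR bZIP family, which bind D-box elements, tefa and dbpb were called lower. tefa stood at 408, 404, 447 and 362 CPM in the wild-type libraries and at 238, 260, 280 and 244 CPM in the kif5a line, a change of -0.67 ± 0.09, and dbpb at 81.0, 67.7, 73.5 and 79.8 CPM against 29.8, 35.3, 35.8 and 42.5 CPM, a change of -1.07 ± 0.17. Neither gene's groups overlapped. dbpa missed the threshold with all 4 libraries below wild type (-0.78 ± 0.16; edgeR adjusted p = 0.0588), as did NR1D2, the second REV-ERB receptor (-0.52 ± 0.12; adjusted p = 0.101). HLF, another member of the bZIP family, differed by 0.36 ± 0.19 with all 4 libraries above wild type and was not called. tefb (-0.26 ± 0.18) and hlfa (-0.10 ± 0.12) overlapped wild type and were not called. Another listed gene, nfil3-5, lay above wild type in 4 of 4 libraries without passing (0.60 ± 0.16, edgeR adjusted p = 0.16).

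On the activating side 1 gene rose. BMAL1 (ENSDARG00000006791) read 33.6, 33.5, 37.5 and 32.5 CPM in the wild-type libraries and 51.0, 50.6, 55.5 and 45.8 CPM in the kif5a line, with every kif5a library above every wild-type one. Its log2 change was 0.56 ± 0.09 (edgeR adjusted p = 0.014), called in 2 of the 8 leave-one-out fits, with log2 changes of 0.53 to 0.62 and, for BMAL1 (ENSDARG00000006791), an edgeR adjusted p of up to 0.062. The second BMAL1 gene (ENSDARG00000035732) was higher in 4 of 4 libraries without passing (0.45 ± 0.12; edgeR adjusted p = 0.189). The CLOCK genes ENSDARG00000011703 and ENSDARG00000003631 differed by 0.57 ± 0.22 and 0.32 ± 0.18, again with all 4 libraries above wild type and neither called. Of the 12 activators listed, 8 were positive and 4 negative, where 48.9% of all tested genes were positive. The negative members were rorc (-0.68 ± 0.32), npas2 (-0.28 ± 0.24), RORA (-0.16 ± 0.16) and rorab (-0.09 ± 0.10). Their groups overlapped and none was called.

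Counted as lists, 13 of 29 clock repressors and output factors, cry5 among them, were called lower and 0 higher, with a median log2 difference of -0.49 and 16 of 29 separated downward and 4 upward. Of 12 activators, 1 was called higher and 0 lower, with a median of 0.25 and 4 separated upward. Over all tested genes, 0.422% were called lower and 0.112% higher, and 4.99% were separated downward and 4.26% upward. Both lists were drawn up with earlier results of these data known, so their counts add nothing to the results for the single genes. The repressor list had means of -0.69, -0.55, -0.53 and -0.49 across kif5a sponge 1 to 4, and the wild-type libraries had -0.07 to 0.14. The called members lay below wild type in all 4 kif5a libraries, so a low list mean in each follows in part from those calls. The part of photoreceptor content in this list was not tested. With kif5a sponge 2 and 3 left out, ciarta kept a log2 change of -2.54, NR1D1 of -2.30 and PER2 of -1.04, and all 3 were still called, while PER1 (ENSDARG00000056885; -1.95) and cipca (-1.48) were not; of the 14 called repressors and output factors described above, 6 kept the call there and 11 did without wild type 2 and 4.

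**Figure D2:**
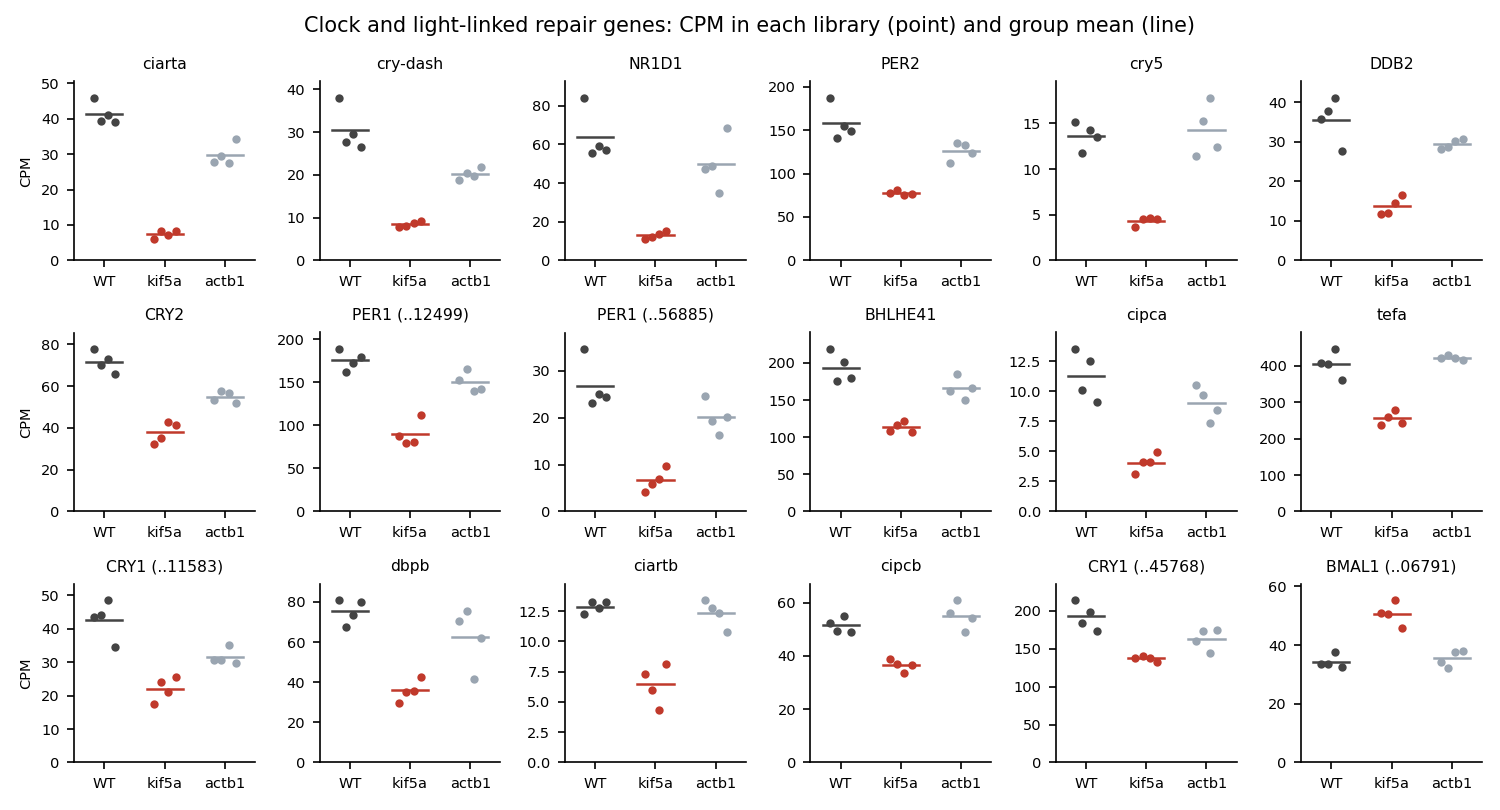
Each panel gives the CPM of 1 gene in every library (points) with the mean of its group (line), for wild type (WT), the kif5a sponge line and the actb1 sponge line, each axis starting at 0. The 17 genes of the clock's repressing arm, its outputs and light-linked repair lie lower in all 4 kif5a libraries than in any wild-type library, and BMAL1, in the last panel, lies higher.

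Genes that zebrafish switch on in light to mend DNA also fell. cry-dash, a flavoprotein of the photolyase and cryptochrome family, stood at 38.0, 27.7, 29.6 and 26.6 CPM in the wild-type libraries and at 7.86, 8.03, 8.71 and 9.22 CPM in the kif5a line. cry5, the zebrafish photolyase for 6-4 lesions, gave 15.1, 11.7, 14.3 and 13.5 CPM against 3.62, 4.57, 4.59 and 4.55 CPM. DDB2, which finds ultraviolet damage in chromatin, gave 35.8, 37.8, 41.1 and 27.6 CPM against 11.7, 12.0, 14.6 and 16.4 CPM. In each case the kif5a libraries lay below all wild-type libraries. The log2 changes were -1.85 ± 0.12, -1.66 ± 0.16 and -1.38 ± 0.14 (edgeR adjusted p = 1.75e-05, 0.000347 and 0.000517), and the 3 genes were called in all 8 leave-one-out fits and without kif5a sponge 2 and 3. Of 8 genes listed for light-driven repair, these 3 were lower and 0 higher, all 8 had a negative log2 difference and the median was -0.38. Over all tested genes, 0.422% were called lower and 51.1% were negative. This list too was drawn up with earlier results known, and cry5 is also counted among the clock repressors, so the count adds no separate result. NEIL1, a glycosylase for oxidised bases, and cpdp, the photolyase for pyrimidine dimers, were lower in 4 of 4 libraries without passing, at -0.44 ± 0.11 and -0.31 ± 0.10.

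Other genes of DNA repair and of the nucleotide supply moved in both directions. RRM2B, the p53-inducible subunit of ribonucleotide reductase, read 56.5, 92.0, 61.0 and 78.2 CPM in the wild-type libraries and 22.4, 23.7, 23.9 and 23.8 CPM in the kif5a line (log2 change -1.61 ± 0.26). RBBP8, the end-resection factor CtIP, fell by 1.31 ± 0.23 and xndc1, a low-level gene related to XRCC1, by 3.57 ± 0.53. SAMHD1, which breaks down deoxynucleotides, rose by 0.95 ± 0.18. RRM2B was called in 4, RBBP8 in 2, xndc1 in 7 and SAMHD1 in 1 of the 8 leave-one-out fits.

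A second set of lower genes belongs to fuel choice, that is, to the switch between sugar and fatty acid burning. Pyruvate dehydrogenase kinases block the entry of pyruvate into the citric acid cycle. PDK2 (ENSDARG00000059054) stood at 8.83, 11.01, 11.7 and 7.77 CPM in the wild-type libraries and at 0.938, 1.31, 2.04 and 2.96 CPM in the kif5a line, and its duplicate ENSDARG00000020876 at 69.7, 65.4, 54.8 and 57.1 CPM against 17.1, 20.8, 25.6 and 39.2 CPM. Neither gene's groups overlapped, and kif5a sponge 4 was the highest of its group for both. The log2 changes were -2.44 ± 0.40 and -1.26 ± 0.23 (edgeR adjusted p = 0.0181 and 0.0279). PDK4 was lower in 4 of 4 libraries and missed the threshold (-0.85 ± 0.19; edgeR adjusted p = 0.101).

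ANGPTL4, a secreted inhibitor of lipoprotein lipase, read 47.7, 92.8, 48.7 and 48.4 CPM in the wild-type libraries and 11.9, 11.1, 9.81 and 18.9 CPM in the kif5a line. Wild type 2 was high among its own group, and even the lowest wild-type library was above every kif5a one (log2 change -2.20 ± 0.36). Carnitine palmitoyltransferases move long fatty acids into mitochondria: CPT1B gave 10.5, 13.2, 9.15 and 10.4 CPM against 1.36, 1.14, 3.26 and 4.80 CPM (-2.03 ± 0.40), and cpt1ab fell by 0.87 ± 0.17. CROT, the carnitine octanoyltransferase of peroxisomes, fell by 0.65 ± 0.13, and BBOX1, which makes the last step of carnitine synthesis, by 1.44 ± 0.28. DECR1, needed to burn unsaturated fatty acids, was lower in 4 of 4 libraries and was not called (-0.61 ± 0.13; edgeR adjusted p = 0.0719).

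As a list, fatty acid oxidation and PPAR targets had 5 of 51 members called lower and 0 higher, 19 separated downward and 0 upward, and 38 with a negative log2 difference. The median was -0.17, and the mean of the list was -0.37, -0.35, -0.28 and -0.25 in kif5a sponge 1 to 4, and the wild-type libraries had -0.04 to 0.06. Over all tested genes, 0.422% were called lower, 4.99% separated downward and 51.1% negative. Earlier results of these data were known when this list was drawn up, so its counts add nothing to the single genes. ANGPTL4 and PDK2 (ENSDARG00000059054) were called in 5 of the 8 leave-one-out fits and lost the call without kif5a sponge 1, 2 or 3, while over the 8 fits the log2 change of ANGPTL4 ranged from -2.44 to -1.90 and that of PDK2 (ENSDARG00000059054) from -2.78 to -2.21. PDK2 (ENSDARG00000020876) was called in 2 of 8, CPT1B, cpt1ab and BBOX1 in 1 and CROT in 0. Without kif5a sponge 2 and 3, none of the 7 fuel and carnitine genes was called (edgeR adjusted p from 0.30 to 0.495). Nor was any called without wild type 2 and 4 (edgeR adjusted p from 0.0814 to 0.277). All 7 kept a negative log2 difference in both fits, which their separate groups nearly fixed beforehand. The median of the list was -0.18 and -0.17 in those fits.

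**Figure D3:**
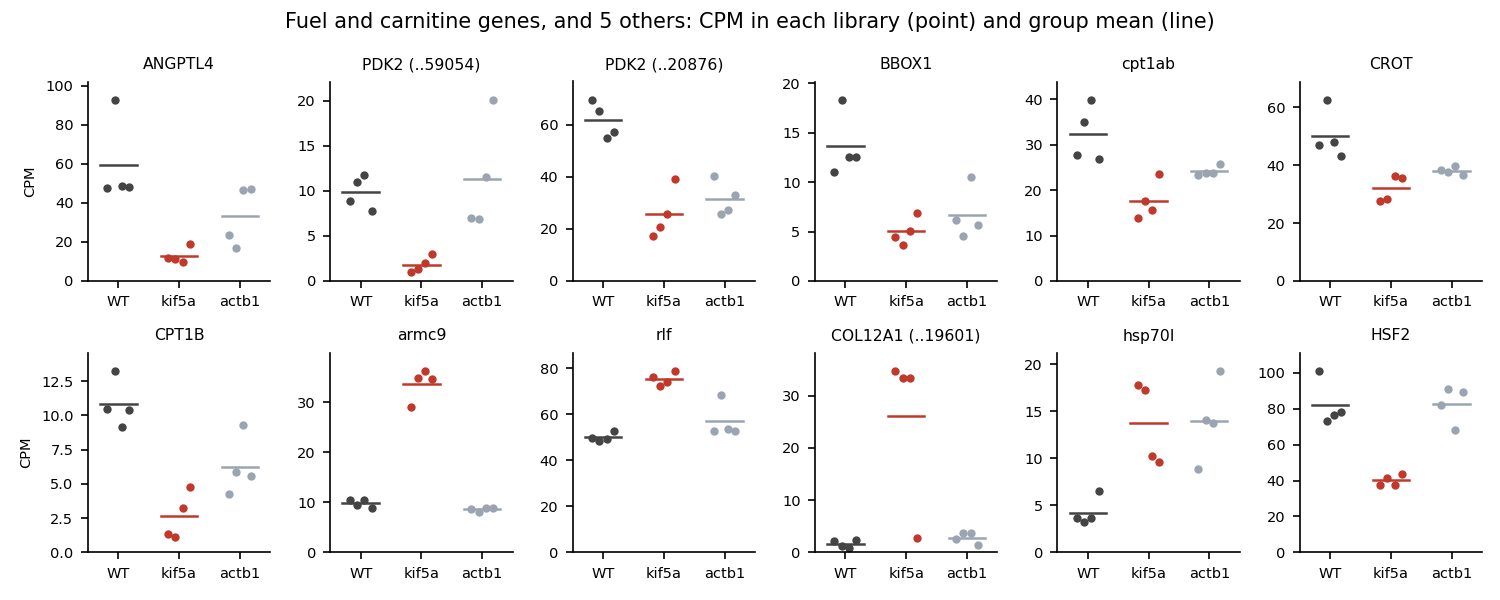
Each panel gives the CPM of 1 gene in every library (points) with the mean of its group (line), for wild type (WT), the kif5a sponge line and the actb1 sponge line, each axis starting at 0. The 7 fuel and carnitine genes lie lower in the 4 kif5a libraries than in wild type; armc9 and rlf lie higher in all 4, while COL12A1 has 1 kif5a library at 2.81 CPM beside 3 above 33 CPM.

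Another 4 lipid enzymes outside that list fell by less: PNPLA7, a lysophospholipase, by 0.65 ± 0.11 on the log2 scale, the P450 gene cyp4t8 by 0.65 ± 0.12, AGMO, which cleaves ether lipids, by 0.51 ± 0.09 and ABHD4, an N-acyl phospholipid lipase, by 0.48 ± 0.09. PNPLA7 had 38.0, 38.7, 34.2 and 37.7 CPM in the wild-type libraries and 23.9, 20.3, 25.6 and 24.9 CPM in the kif5a line. AGMO had 32.2, 33.5, 34.5 and 32.7 CPM against 23.6, 22.8, 24.6 and 22.2 CPM. Within each group these values were close together, and the groups did not touch. PNPLA7 and cyp4t8 were called in 1, and AGMO and ABHD4 in 0, of the 8 leave-one-out fits.

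A further 12 called genes, mostly enzymes of amino acid, sugar and sulfate metabolism, were 10 lower and 2 higher, a split like the 67 lower of all 84 named genes. sult2st3, a cytosolic sulfotransferase, went from 89.8, 109, 132 and 104 CPM in wild type to 30.2, 32.7, 57.5 and 29.9 CPM, a change of -1.53 ± 0.22 that was called in all 8 leave-one-out fits. Among the rest, FAH, which ends the breakdown of tyrosine, fell by 1.63 ± 0.27, HYKK (ENSDARG00000074341), a hydroxylysine kinase, by 1.54 ± 0.26, and ASPA, which splits N-acetylaspartate, by 1.37 ± 0.24. XYLB, the xylulose kinase, fell by 1.81 ± 0.30 and ANPEP (ENSDARG00000036809), a membrane aminopeptidase, by 1.28 ± 0.24. tcn2, a carrier of vitamin B12, read 23.8, 23.7, 25.8 and 21.5 CPM in the wild-type libraries and 16.8, 16.2, 16.7 and 15.1 CPM in the kif5a line (-0.55 ± 0.09). dhrs12, a short-chain dehydrogenase gene, CMBL, a hydrolase gene, and ghdc fell by 0.72 ± 0.14, 0.90 ± 0.18 and 0.71 ± 0.12. The 2 that rose were MAN2B2, a mannosidase, by 0.69 ± 0.13, and GPAA1, a subunit of the transamidase that attaches GPI anchors, by 0.42 ± 0.07. Beside sult2st3, these calls held in 0 to 5 of the 8 leave-one-out fits.

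Of the heme and mitochondrial genes, 3 were lower. HCCS (ENSDARG00000028131), which joins heme to cytochrome c, read 23.0, 17.9, 22.3 and 18.1 CPM in the wild-type libraries and 11.3, 11.5, 11.9 and 11.6 CPM in the kif5a line, where its 4 values were nearly equal (log2 change -0.81 ± 0.11, called in all 8 leave-one-out fits). HEBP2, a heme-binding protein gene, fell by 0.82 ± 0.12. atp5mea, a subunit of ATP synthase, went from 69.9, 64.1, 73.0 and 73.4 CPM to 26.2, 30.8, 29.3 and 27.2 CPM (-1.30 ± 0.20). NIPSNAP1, a mitochondrial protein gene near 0.5 CPM or less in wild type, rose by 2.62 ± 0.46. The 13 protein genes of the mitochondrial genome included 0 called by edgeR or DESeq2 and 0 at an unadjusted p under 0.05, with a median of -0.09.

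Among stress genes, HSF2, a heat shock transcription factor, went from 101, 73.1, 76.4 and 78.2 CPM in wild type to 37.4, 41.6, 37.8 and 43.8 CPM, a change of -1.03 ± 0.12 that was called in all 8 leave-one-out fits. hsp70l, a heat-inducible chaperone gene, read 3.62, 3.18, 3.62 and 6.49 CPM against 17.8, 17.2, 10.2 and 9.57 CPM (1.70 ± 0.30), with kif5a sponge 1 and 2 above 3 and 4. Near-identical copies of inducible HSP70 genes exist in zebrafish, so the split of reads between them is uncertain. Of 37 genes listed for heat shock and the unfolded protein response, these were the 1 lower and 1 higher called, and the median was 0.09. Over all tested genes, 0.422% were called lower and 0.112% higher. The small heat shock gene hspb15 fell by 0.59 ± 0.12, eif4ebp3, a brake on cap-dependent translation, by 0.94 ± 0.18, and CAPRIN1 (ENSDARG00000054272), an RNA-binding protein of stress granules, by 0.48 ± 0.09. lonrf4 and lonrf1, RING finger genes, fell by 0.63 ± 0.09 and 0.52 ± 0.09, and serpinb14, a serpin gene, rose by 1.003 ± 0.16. hsp70l was called in 2 of the 8 leave-one-out fits, lonrf4 in 8 and serpinb14 in 5.

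Among the lower genes, 10 were sorted to immunity, while SAMHD1, which also restricts viruses, rose as given above. The sorting followed the values, and 67 of all 84 named genes (79.8%) were lower. mhc2dgb summed to 2085 counts over the wild-type libraries and mhc2dga, next to it and likewise a class II MHC gene, to 1455. Neither had a single count in the kif5a line. With 3 counts over the group taken as the floor, mhc2dgb was at least 786.7-fold lower and mhc2dga at least 549-fold lower. Wild-type levels of mhc2dgb were themselves uneven, at 15.3, 34.2, 7.82 and 21.7 CPM. In the actb1 line mhc2dgb had 1 count and mhc2dga 2 counts, all of them in actb1 sponge 1. The sets of MHC genes differ between haplotypes in fish, and the sources used here do not say how reads that match several copies were counted, so these values are uncertain.

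Of 28 genes tested for MHC and antigen presentation, mhc2dga and mhc2dgb were the 2 called lower and 0 were higher (over all genes, 0.422% and 0.112%). The median log2 difference was -0.76, with 22 negative and 6 positive, and without wild type 2 and 4 the median was 0.33. The list mean was 0.68 and 1.01 in wild type 2 and 4, -0.75 and -0.94 in wild type 1 and 3, and -0.83 to -0.50 in the kif5a line, so only the former pair lay above the kif5a libraries. The class I gene mhc1zfa stood above wild type in 4 of 4 libraries without being called (2.95 ± 0.73; edgeR adjusted p = 0.135). Among the other members, mhc1zka differed by 2.37 ± 1.1, mhc1zca by 1.34 ± 1.1 and mhc2dab by 0.70 ± 1.06, and mhc1zaa by -3.82 ± 0.90, none of them called and all with overlapping groups.

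rca2.2, a regulator of complement activation, read 9.88, 10.97, 14.6 and 23.0 CPM in the wild-type libraries and 2.62, 3.84, 2.08 and 4.64 CPM in the kif5a line (log2 change -2.14 ± 0.31, called in all 8 leave-one-out fits). ftr12 and ftr19, finTRIM genes of antiviral defence in fish, fell by 2.52 ± 0.39 and 1.89 ± 0.37, and map3k14b, a kinase gene of the non-canonical NF-kappa-B path, by 1.60 ± 0.29. CTSB, the lysosomal protease cathepsin B, gave 86.2, 88.2, 90.5 and 115 CPM against 51.7, 57.1, 62.4 and 62.6 CPM (-0.70 ± 0.11), and DEF8, a lysosome-linked gene, fell by 0.69 ± 0.11. vcam1b, an adhesion molecule for leukocytes, and tmem176l.1 fell by 0.69 ± 0.13 and 0.49 ± 0.09. Microglia markers had a median log2 difference of -0.70, with 26 of 31 negative, 1 called lower (CTSB, against 0.422% over all tested genes) and 0 higher. Their summed level was 1280 to 2247 CPM in the wild-type libraries and 1268 to 1365 CPM in the kif5a line, and their part in the immune genes was not tested. Without wild type 2 and 4, the pair high in these markers, the microglia median was 0.33. In that fit 6 of the 10 immune genes were no longer called (edgeR adjusted p from 0.0814 to 0.262). These were CTSB, ftr12, ftr19, map3k14b, vcam1b and tmem176l.1, while mhc2dga, mhc2dgb, rca2.2 and DEF8 were still called. All 10 kept a negative log2 difference, which their separate groups nearly fixed beforehand. No microglia marker tested was at 0 in all 8 libraries.

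The clearest rise was that of armc9, a gene of the ciliary base that is mutated in human Joubert syndrome. It stood at 10.4, 9.45, 10.5 and 8.90 CPM in the wild-type libraries and at 29.2, 34.9, 36.3 and 34.6 CPM in the kif5a line, with no kif5a library below 29 CPM and no wild-type library above 11 CPM. The log2 change was 1.78 ± 0.10 (edgeR adjusted p = 4.23e-06), called in all 8 leave-one-out fits. spef2, needed for the axoneme of motile cilia and sperm tails, rose by 0.96 ± 0.17 and was called in 2 of 8. Of 25 ependymal and ciliary genes 1 was called higher (armc9) and 0 lower, with a median of 0.19. That list, armc9 included, was drawn up with earlier results of these data known. Its 1 call therefore adds nothing to the result for armc9 itself. Over all tested genes, 0.112% were called higher. RFX2, a regulator of ciliary genes, was lower in 4 of 4 libraries and missed the threshold (-0.35 ± 0.08; edgeR adjusted p = 0.0828), and RSPH4A, a radial spoke gene, was higher in 4 of 4 (0.66 ± 0.18; adjusted p = 0.2).

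Other higher genes share no single role. rlf, a zinc finger gene, read 49.5, 48.6, 49.0 and 52.5 CPM in the wild-type libraries and 75.9, 72.1, 73.9 and 78.7 CPM in the kif5a line, a small and even rise of 0.59 ± 0.09 called in all 8 leave-one-out fits. ttf2, a transcription termination factor, rose by 0.93 ± 0.15, STXBP6, a SNARE-binding protein gene, by 0.75 ± 0.13 and IGLON5, a neuronal adhesion molecule, by 0.94 ± 0.18. CCDC134 (ENSDARG00000103285) rose by 3.32 ± 0.61 from low levels. MYL7, a myosin light chain of the heart, gave 8.27 CPM in kif5a sponge 2 and 1.496 to 2.355 CPM in the other 3, against 0.305 to 0.758 CPM in wild type (2.76 ± 0.54). It was highest in kif5a sponge 2, where 20 muscle, skin and gill markers summed to 1612 CPM, against 340.8 to 388.2 CPM in the other 3 kif5a libraries. Without kif5a sponge 2 the log2 difference of MYL7 was 1.89, and the part of muscle or skin in it was not tested.

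The 21 called genes without a gene name, 5 higher and 16 lower, include some of the smallest p-values, and 4 are given here, chosen after their values were seen. ENSDARG00000099658 read 0.298, 0.644, 0.229 and 0.568 CPM in the wild-type libraries and 13, 14.5, 11.9 and 7.17 CPM in the kif5a line (log2 change 4.73 ± 0.36; edgeR adjusted p = 6.08e-05). ENSDARG00000087767 summed to 3 counts over the wild-type libraries and 194 over the kif5a ones. ENSDARG00000101337 read 43.5, 100.2, 32.1 and 113 CPM in the wild-type libraries, with wild type 2 and 4 the high pair, and 0.744, 0.519, 0 and 0.405 CPM in the kif5a line (-7.38 ± 0.64). ENSDARG00000100333 fell by 3.52 ± 0.35 on the log2 scale. The groups were separate for all 4 genes, which were called in all 8 leave-one-out fits and without either pair of libraries. In the actb1 line against wild type, ENSDARG00000087767 (5.18), ENSDARG00000100333 (-4.25) and ENSDARG00000101337 (-3.16) were also called, but ENSDARG00000099658 (-1.82) was not. ENSDARG00000087767 and ENSDARG00000100333 are neighbours in the count table, and ENSDARG00000101337 lies next to mhc2dgb. How reads were shared between such neighbours was not tested.

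The remaining lower genes with a name were ZNF395 (ENSDARG00000024195), a zinc finger gene called in all 8 leave-one-out fits with a log2 change of -0.90 ± 0.12, smu1b, a splicing factor gene (-0.87 ± 0.15), znf106b (-1.46 ± 0.22), ntd5 (-1.93 ± 0.29), TCP11L2 (-0.73 ± 0.13), IBTK (-0.76 ± 0.15) and arhgef28b, a guanine nucleotide exchange factor gene (-2.72 ± 0.51). ZNF395 read 83.9, 77.6, 72.5 and 62.0 CPM in the wild-type libraries and 34.4, 38.4, 42.3 and 44.0 CPM in the kif5a line. arhgef28b overlapped, since wild type 2 at 0.847 CPM lay below kif5a sponge 4 at 1.03 CPM. Some called genes lie side by side in the genome order of the count table: 14 of the 105 had another called gene within 5 rows. They include the MHC genes on chromosome 8, armc9 with HYKK on chromosome 22, and dbpb with ntd5 on chromosome 16. On chromosome 22, si:ch211-276k2.2, within 5 rows of HYKK, was called higher like armc9 (log2 change 4.77), while HYKK was lower. The number to be met among as many genes drawn at random was not worked out, so the 14 cannot be read as clustering. Beyond the clock genes, the named genes still called without kif5a sponge 2 and 3 were armc9, the 3 genes of light-linked repair, mhc2dga and mhc2dgb, and sult2st3.

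**Figure D4:**
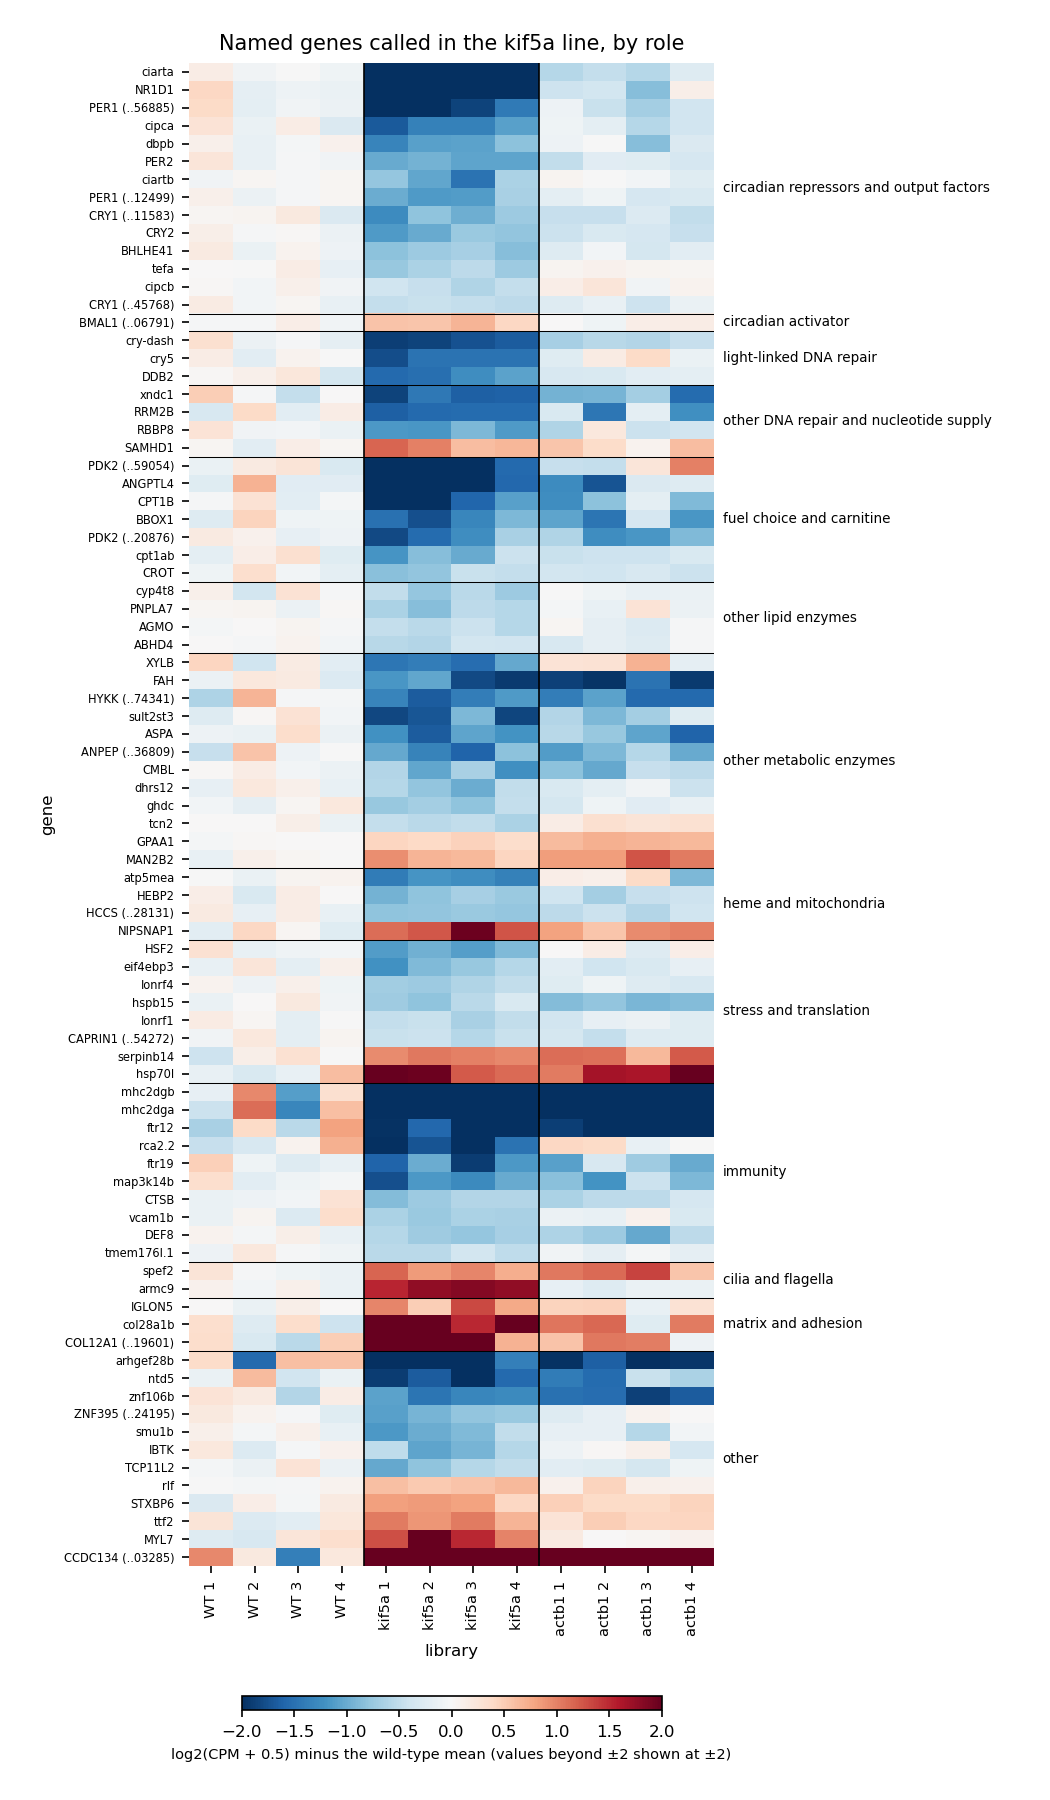
Rows are the 84 called genes with a name, sorted by role and then by log2 change, and columns are the 12 libraries; colour is log2(CPM + 0.5) minus the wild-type mean, red above and blue below, with values beyond ±2 shown at ±2. The kif5a columns are blue to differing depth for the circadian repressors and outputs and the light-linked repair genes, and red for BMAL1 and SAMHD1. The actb1 columns are paler for those blue rows and are close to the kif5a columns for genes such as FAH, znf106b, ftr12 and CCDC134.

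A sponge that drew miR-29 away could be looked for in its reported targets, which were followed as lists. The collagen list was filled by gene family. No evidence of targeting is given here for its single members, COL12A1 and col28a1b included. Of 40 collagen genes tested, 2 were called higher and 0 lower, 28 were positive and the median was 0.25. Over all tested genes, 0.112% were called higher and 48.9% were positive. COL12A1 (ENSDARG00000019601), a fibril-associated collagen, stood at 2.12, 1.15, 0.915 and 2.37 CPM in the wild-type libraries and at 34.7, 33.4, 33.3 and 2.81 CPM in kif5a sponge 1 to 4. Its log2 change was 4.00 ± 0.66, and kif5a sponge 4 lay just above wild type. It was called in 2 of the 8 leave-one-out fits, with log2 changes of 3.8 to 4.38 and, for COL12A1 (ENSDARG00000019601), an edgeR adjusted p of up to 0.0718. col28a1b, a low-level collagen gene, read 0.820, 0.373, 0.839 and 0.284 CPM in the wild-type libraries and 3.78, 4.60, 2.47 and 3.86 CPM in the kif5a line (2.65 ± 0.48, called in 1 of 8).

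The fibrillar collagens were uneven within the kif5a line. col1a1a read 18.6, 15.9, 21.9 and 17.4 CPM in the wild-type libraries and 24.6, 96.0, 43.8 and 16.6 CPM in kif5a sponge 1 to 4. The groups overlapped and the gene was not called (log2 difference 1.29 ± 0.51; edgeR adjusted p = 0.362). COL10A1 (ENSDARG00000054753) rested on kif5a sponge 2 alone, at 37.3 CPM against 0.259 to 0.589 CPM in the other 3, and its log2 difference of 3.88 turned to -0.79 without that library. The collagen list as a whole had means of 0.39, 0.91, 0.27 and -0.08 in kif5a sponge 1 to 4, and without kif5a sponge 2 and 3 its median was 0.06.

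In the other target classes edgeR called 0 genes, where it called 0.534% of all tested genes. At that share few calls would be met in lists of this size, so the 0 does not show that these targets were unchanged. The 45 further matrix genes had a median of -0.07, the 15 genes of DNA methylation one of 0.09, the 15 of the BCL2 family one of -0.18 and 47 other reported targets one of -0.00, against -0.01 over all genes. In the same order, 6, 2, 4 and 2 of these genes had an unadjusted p under 0.05, and DESeq2 called 1 matrix gene and 0 of the others. Over all 19645 tested genes, 2222 had such a p and DESeq2 called 437. DNMT1, the maintenance methyltransferase, differed by 0.28 ± 0.12 with overlapping groups (edgeR adjusted p = 0.43). Among 27 genes of iron handling, 5 were separated downward and 0 were called by edgeR (5 at an unadjusted p under 0.05, 2 called by DESeq2). Over all tested genes, 4.99% were separated downward. ISCU (ENSDARG00000035596), the iron-sulfur scaffold, read 95.7, 93.0, 103 and 96.6 CPM in the wild-type libraries and 67.6, 76.6, 77.6 and 77.7 CPM in the kif5a line (-0.37 ± 0.09; edgeR adjusted p = 0.116). SLC40A1, the iron exporter ferroportin, differed by -0.48 ± 0.12 and IREB2, an iron regulatory protein gene and reported miR-29 target, by 0.14 ± 0.08, and neither was called.

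Several lists without a called member were one-sided in sign. Over all 19645 tested genes, 48.9% were positive, 51.1% negative, 4.99% separated downward and 0.422% called lower. Of these genes, 2222 had an unadjusted p under 0.05 and DESeq2 called 437. Of 33 genes of cholesterol synthesis 29 were positive, with a median of 0.44, 15 had an unadjusted p under 0.05 and DESeq2 called 1. The list mean was 1.0 and 0.72 in kif5a sponge 1 and 2. It was 0.06 in kif5a sponge 3, inside the wild-type range of -0.10 to 0.10, and -0.17 in kif5a sponge 4, below it. In the actb1 line the median of this list was 0.46, and its library means of 0.33 to 0.49 all lay above the wild-type range. SREBF1, a regulator of lipid synthesis, was higher in 4 of 4 libraries (0.82 ± 0.24; edgeR adjusted p = 0.224). Of 74 cytosolic ribosome genes 73 were negative and 13 separated downward, with a median of -0.19; 3 had an unadjusted p under 0.05 and DESeq2 called 0. The ribosome list means of the groups overlapped, at -0.27, -0.08, -0.12 and -0.31 in kif5a sponge 1 to 4 against -0.15, 0.18, -0.01 and -0.02 in wild type 1 to 4. The 13 mitochondrial transcripts were all negative, and their list means also overlapped (-0.28 to 0.09 in the kif5a line, -0.22 to 0.34 in wild type). Photoreceptor markers were positive for 36 of 42, with 27 at an unadjusted p under 0.05 and 19 called by DESeq2, and their median was 3.26, and 0.35 without kif5a sponge 2 and 3. Leukocyte markers other than microglia were negative for 16 of 20 (5 at an unadjusted p under 0.05, 0 by DESeq2), and their median of -0.71 turned to 0.35 without wild type 2 and 4. Among immediate early genes, 0 of 37 were called by edgeR or DESeq2 (5 at an unadjusted p under 0.05, median -0.14), and among glucocorticoid and FOXO targets 2 of 43 were lower and 0 higher, both of them PER1 genes already described (median -0.14).

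**Figure D5:**
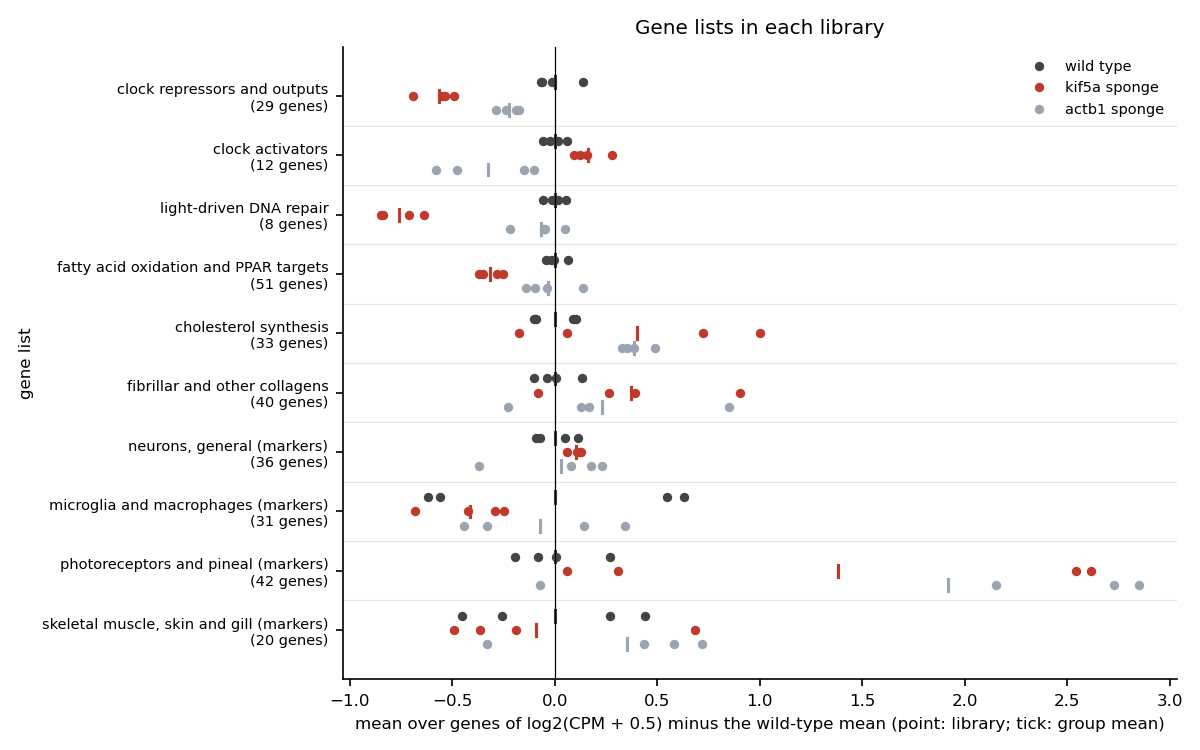
Each point is the mean over the genes of 1 list, in 1 library, of log2(CPM + 0.5) minus the wild-type mean, with ticks for group means; gene numbers stand beside the list names. The 4 kif5a libraries lie together below wild type for clock repressors (-0.69 to -0.49) and light-driven repair, and apart from each other for cholesterol synthesis (-0.17 to 1.0), collagens and photoreceptors (0.06 to 2.62).

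The actb1::miR-29sponge line offers a second strain whose label names a miR-29 sponge. Both lines were compared with the same wild-type libraries, so their differences from wild type are not independent, and the direct test of the kif5a line against the actb1 line shares the kif5a libraries. That direct test called 106 genes higher in the kif5a line (0.540% of 19645) and 126 lower (0.641%), and the actb1 line differed from wild type in 145 genes (0.738%). Within the actb1 line, actb1 sponge 3 stood apart, with the 13 mitochondrial transcripts at a mean log2 level of -3.005 from wild type, and photoreceptor markers were high in actb1 sponge 1, 2 and 3 (2.15 to 2.85). Without actb1 sponge 3 the direct test called 67 genes higher and 107 lower. Of the 14 circadian repressors and output factors, 12 were also called lower than in the actb1 line, as were cry-dash, cry5 and DDB2. Of all 83 lower genes, 33 were also called lower in that test. By its means for the repressor list, -0.29 to -0.18, the actb1 line lay below every wild-type library and above every kif5a library. The median log2 difference of that list from wild type was -0.29, and 0 of the 14 genes were called against wild type by edgeR (adjusted p of 0.0918 and above). Not every gene lay between, since tefa and cipcb differed from wild type by 0.06 and 0.10 in the actb1 line. The activator list had a median of -0.29 in the actb1 line, against 0.25 in the kif5a line, and actb1 library means of -0.58 to -0.10. ciarta stood at 27.7, 29.5, 27.5 and 34.4 CPM in actb1 sponge 1 to 4, below wild type and above every kif5a library, a log2 difference of -2.02 ± 0.13 between the lines (edgeR adjusted p = 6.49e-06). cry-dash gave 18.9, 20.4, 19.8 and 21.8 CPM in the actb1 line, also lower than in wild type (-0.59 ± 0.12; edgeR adjusted p = 0.0465), and -1.26 ± 0.12 separated the kif5a from the actb1 line. cry5 gave 11.5, 15.2, 17.8 and 12.4 CPM in the actb1 line, overlapping wild type (log2 difference from wild type 0.06), and lay 1.72 ± 0.16 higher there than in the kif5a line on the log2 scale. The exceptions were the CRY1 genes, with differences between the lines of -0.52 (ENSDARG00000011583; edgeR adjusted p = 0.0861) and -0.25 (ENSDARG00000045768; adjusted p = 0.19).

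armc9 read 8.68, 8.15, 8.86 and 8.88 CPM in the actb1 line, below every wild-type library, and the lines differed by 1.96 ± 0.10. HSF2 differed between the lines by -1.04 ± 0.12 and tcn2 by -0.81 ± 0.09. Of the 7 fuel and carnitine genes, 1 passed the direct test, PDK2 (ENSDARG00000059054; -2.64, edgeR adjusted p = 0.00843), and ANGPTL4, at 23.5, 16.8, 46.4 and 47.2 CPM in the actb1 line, did not (-1.37; adjusted p = 0.0861). Of the 22 higher and 83 lower genes of the kif5a line, 7 and 16 were also called in the actb1 line against wild type in the same direction. They included spef2 (log2 change 0.96 in the kif5a line and 1.08 in the actb1 line), MAN2B2 (0.69 and 1.025), GPAA1 (0.42 and 0.68) and hspb15 (-0.59 and -0.88). For several genes the lines gave like values against wild type: FAH changed by -1.63 in the kif5a line and -2.09 in the actb1 line, znf106b by -1.46 and -1.90, ftr12 by -2.52 and -3.09, hsp70l by 1.70 and 1.73, and CCDC134 (ENSDARG00000103285) by 3.32 and 3.13. A difference between the lines was not detected for these 5 genes (lowest edgeR adjusted p = 0.347, for znf106b), which does not show that they are equal.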

How the data were processed

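Total RNA from 12 zebrafish brain samples was sequenced after preparation with the TruSeq RNA kit v2, per the labels' protocols, a kit that does not mark strand, so reads of overlapping genes on opposite strands cannot be told apart. The authors deposited a table of read counts per gene for 32105 genes. The submitters' processing notes name bcl2fastq 1.8.4, STAR 2.4.1d, featureCounts 1.4.6-p4 and the build GRCz10; the sources used here do not name a release of the gene annotation. A deposited table of RPKM values was not used. Symbols were matched for 26269 genes (81.8%), and copies in multigene families are uncertain.

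Genes above 0.5 CPM in at least 4 libraries (19645, holding 99.92% of counts) were fitted in R 4.3.3 with edgeR 4.0.16 (TMM scaling, quasi-likelihood F-test, all 12 libraries in 1 fit by strain) and adjusted by Benjamini-Hochberg over all tested genes. The filter used CPM on library totals. All printed CPM values use the total over tested genes multiplied by the TMM factor of each library. SEs are the absolute log2 change over the square root of F, and list levels are means of log2(CPM + 0.5). The scripts were tested on simulated data. Named genes are, among called genes whose symbol is a gene name and not an identifier or clone name, up to 15 of smallest p and 10 more of largest change per direction (at least 2 CPM on average and groups not overlapping for the latter), the called and up to 3 uncalled members of each list, preset genes tied to the construct, the genes nearest the threshold, and the other called genes with a gene name. PER3, cry4, BHLHE40, HLF, the second CLOCK gene, the negative clock activators, the uncalled MHC genes and 4 genes without a name were picked after their values were seen. The same holds for the per-library values of PNPLA7, AGMO and other genes far from the smallest p. The members and gene lists were chosen with earlier results of these data known, and the roles were assigned after values were seen. Alternatives were DESeq2 1.42.0 and its size factors, limma 3.58.1 with voom, other filters, only the 8 libraries and each library left out. In 2 more fits, kif5a sponge 2 and 3 (high in photoreceptor markers) or wild type 2 and 4 (high in leukocyte markers) were left out. The libraries actb1 sponge 1, 2 and 3, also high in photoreceptor markers, stayed in both.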

Additional observations from a re-analysis of the deposited data

Results flagged for a closer look

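With 4 libraries per group, the highest or lowest library of a named gene was marked where its gap to the next passed Dixon's critical share of the group's range, which chance does in about 1 group in 20. How many marks chance alone would give over all named genes was not worked out, so single marks may be chance. In wild type, the high library was the first for NR1D1 (84.2 CPM) and PER1 (ENSDARG00000056885; 34.7 CPM), wild type 2 for ANGPTL4 (92.8 CPM), and wild type 4 for hsp70l (6.49 CPM) and CTSB (115 CPM). ASPA at 14.8 CPM and RBBP8 at 4.88 CPM were also marked in wild type. In the kif5a line, COL12A1 (ENSDARG00000019601) stood low at 2.8 CPM and STXBP6 low at 14.8 CPM in kif5a sponge 4, and cry5 low at 3.62 CPM and RRM2B low at 22.4 CPM in kif5a sponge 1. MYL7 stood high at 8.27 CPM in kif5a sponge 2, NIPSNAP1 at 2.24 CPM and sult2st3 at 57.5 CPM in kif5a sponge 3, and arhgef28b at 1.03 CPM in kif5a sponge 4. RBBP8 at 1.88 CPM and CAPRIN1 (ENSDARG00000054272) at 119 CPM were marked there too.

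The change from wild type differed between the sponge lines, by edgeR's direct test of one line against the other, for armc9 with a log2 difference of 1.964, ciarta with -2.015, cry5 with -1.717, cry-dash with -1.257, NR1D1 with -1.944, tcn2 with -0.8134, tefa with -0.727 and HSF2 with -1.04.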

How the results depend on the processing

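Against wild type, the 22 higher and 83 lower genes became 156 and 281 with DESeq2, 5 to 26 and 30 to 70 in the leave-one-out fits, and 3 and 21 without the libraries high in photoreceptor markers (kif5a sponge 2 and 3). Without those high in leukocyte markers (wild type 2 and 4) 46 genes were lower. Against the actb1 line, the 106 higher and 126 lower genes became 455 and 495 with DESeq2, 42 to 80 and 54 to 112 in the leave-one-out fits, and 13 and 17 without kif5a sponge 2 and 3. The fit without kif5a sponge 2 and 3 kept actb1 sponge 1, 2 and 3, also high in photoreceptor markers. In those markers the sponge lines therefore lay further apart in that fit. Fits without libraries have fewer samples. The cause of the DESeq2 counts was not tested. All 105 called genes kept their sign without either pair of libraries. For all except arhgef28b this was nearly fixed beforehand, since their groups were separate. Signs turned for COL10A1 (ENSDARG00000054753), at -0.79 to 4.37 in the leave-one-out fits and -1.25 without kif5a sponge 2 and 3, for lgals9l1, at 0.34 without wild type 2 and 4, and for KIF5A, at -0.025 to 0.13 and at -0.077 without wild type 2 and 4; none of these 3 genes was called. No paired analysis was possible because the labels number no replicates, and the numbers used here only name the libraries.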
